A study of Homo sapiens with 2 samples.

Results

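The genes described are 8 ubiquitin ligases of the NEDD4 type (NEDD4, NEDD4L, ITCH, WWP1, WWP2, SMURF1, SMURF2 and HECW2) and the 2 adaptors NDFIP1 and NDFIP2 that bind them. They were listed by name, and each is represented by the probe sets that the platform annotation assigns to that gene alone. All 10 genes were found, with 38 probe sets, among 54675 probe sets on the array. HEK-293T is an established line of human embryonic kidney cells that expresses SV40 large T antigen. One culture received a miR-194 mimic and the other a negative control mimic, each delivered by lipofection at 50 nM for 48 h, and total RNA of each was read on 1 array. The mimics are short synthetic RNA duplexes, and both arrays come from transfected cells.

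NEDD4-type ligases share a catalytic HECT domain, which takes ubiquitin onto its own cysteine before passing it to the substrate, and a run of WW domains that grip proline-rich PY motifs. They mark membrane receptors, channels and signalling proteins for endocytosis or degradation. NDFIP1 and NDFIP2 are membrane proteins of the Golgi and endosomes whose PY motifs recruit these ligases and relieve their self-inhibition. A microRNA pairs with messenger RNAs mainly through its seed and lowers their stability or translation.

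The mature miR-194 sequences are shown because the mimic is the only agent that differs between the cultures, and the labels do not say which arm it copies. The letters are those of RefSeq on GRCh38.p14, and capitals mark the seed, bases 2 to 8.
hsa-miR-194-5p: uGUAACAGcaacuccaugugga
hsa-miR-194-3p: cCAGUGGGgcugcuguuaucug
The first is encoded at chr1:220118206-220118227 (MIR194-1) and again at chr11:64891404-64891425 (MIR194-2). The second lies at chr11:64891368-64891389, and all of these are on the minus strand. Transcript sequences of the ligases were not used here, so no seed match in them is given.

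The deposited values are log2 signals, and a difference is always the miR-194 mimic minus the control mimic. Signals below an array's median, 6.10 on the control array and 6.06 on the miR-194 array, were raised to it, and probe sets whose mean stayed above that floor were kept. The kept probe set that was brightest on average stands for its gene. With 1 array per group there is no replicate error and no test. In its place, the ± after a log2 difference is the probe set error. For each gene that had them, the gap between the differences of its 2 brightest kept probe sets was taken. The error is the SD of those gaps divided by the square root of 2. Across 6456 genes it was 0.38 at low, 0.31 at middle and 0.27 at high signal. It leaves out variation between cultures, labelling reactions and arrays, which cannot be told apart from the mimic. Fewer cells of a kind and less RNA per cell cannot be told apart in these bulk samples. Different probe sets have different brightness per transcript, so no gene's level is ranked against another's.

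All 10 genes passed the filter, each with its brightest probe set above the floor on both arrays. NEDD4 was the only one lower by 1.5-fold or more, 1 of 10 genes where 7.31% of all 12769 genes were. None of the 10 was higher by that size, where 2.98% of all genes were. None passed 2-fold in either direction, where 1.42% of all genes were lower and 0.431% higher. By gene value, 7 of the 10 were below 0 (6 after scaling the arrays to equal medians, where NDFIP1 crossed 0), against 47.6% of all genes. Their median log2 difference was -0.15, beside 0.019 for all genes. It was -0.063 over the 8 genes kept with the floor at the 75th percentile, beside 0.029 for all genes on that setting. Without shared-sequence probe sets it was -0.23 over the 9 genes read, beside -0.013. Over the 8 genes with a second probe set it was 0.062, beside 0.036. The shares past 1.5-fold are near the background and are no result about these genes.

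**Figure D1:**
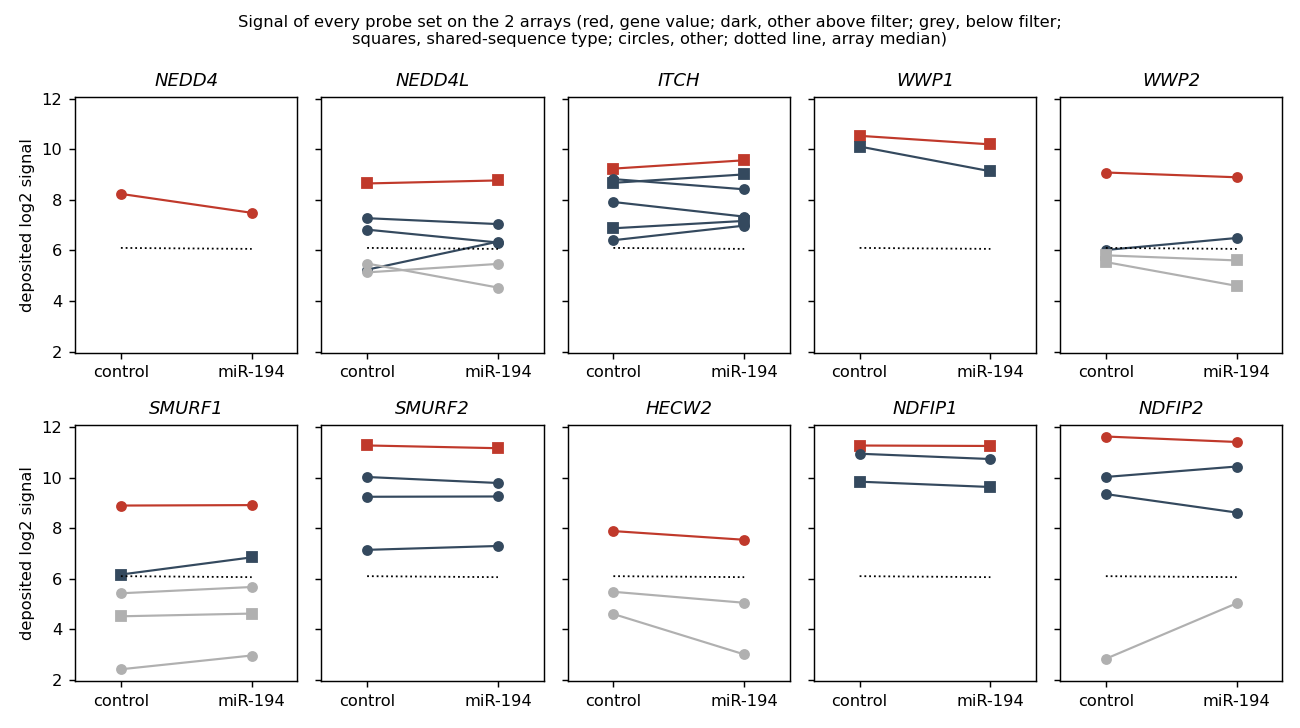
Deposited log2 signal of all 38 probe sets of the 10 genes on the control and miR-194 arrays, 1 panel per gene, with red for the gene value, dark for other kept probe sets, grey for those below the filter, squares for the shared-sequence type and a dotted line at the array median. The single NEDD4 line runs from 8.24 down to 7.49, while ITCH and NDFIP2 each have lines sloping both ways.

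NEDD4, the founding member, which ubiquitinates growth factor receptors such as IGF1R and FGFR1, has 1 probe set, 213012_at. It read 8.24 on the control array and 7.49 on the miR-194 array (log2), or 302 and 180 on the linear scale. The log2 difference was -0.75 ± 0.38, which is 1.68-fold lower, and 3.87% of all genes were as low or lower. No second probe set of NEDD4 could be set beside this value.

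NEDD4L, the closest relative of NEDD4 and a regulator of the epithelial sodium channel, did not share that value on its brightest probe set. Its brightest probe set, 212445_s_at, read 8.65 and 8.77, a log2 difference of 0.12 ± 0.38. The next, 226974_at, read 7.28 and 7.04 (-0.23), and 212448_at read 6.82 and 6.32 (-0.51). The dimmest kept probe set, 241396_at, lay below the floor on the control array at 5.24 and read 6.35 on the other, so its difference is a bound of at least 0.25. The 4 kept NEDD4L probe sets therefore lay on both sides of 0, over at least 0.76 on the log2 scale. By gene value NEDD4 stood 0.87 log2 units below NEDD4L, with a joint probe set error of 0.54. That NEDD4L value comes from a probe set of the shared-sequence type. Without that type NEDD4L was at -0.23 and NEDD4 still at -0.75, so the size of the gap depends on which probe set is read.

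ITCH, which ubiquitinates JUNB and p63 and restrains T cell activation, had 6 probe sets, all kept, and they disagreed in direction. The 3 whose names end in _s_at or _x_at, designed on sequence shared between transcripts, were all higher. The brightest, 209744_x_at, read 9.24 and 9.57, a log2 difference of 0.33 ± 0.31. The next of that type, 217094_s_at, read 8.68 and 9.01 (0.33), and 209743_s_at read 6.88 and 7.17 (0.29). These 3 probe sets gave nearly the same difference at different brightness. Of the 3 without such an ending, 235057_at read 8.83 and 8.42 (-0.40) and 239101_at read 7.92 and 7.34 (-0.58). The dimmest, 236235_at, read 6.41 and 6.98 (0.58). The shared type averaged 0.32 and the other type -0.14, a gap of 0.45. Over the 3521 genes with both types, the shared type was higher by a median of 0.14 (SD 0.44), and 20.8% of those genes had a gap as large. Without the shared type the ITCH value was -0.40 instead of 0.33, so the direction of ITCH depends on which probe sets are read.

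WWP1, a ligase of the transcription factor KLF5 and the kinase LATS1, was lower on both of its probe sets. The brighter, 212638_s_at, read 10.54 and 10.20, a log2 difference of -0.34 ± 0.31. The other, 212637_s_at, read 10.11 and 9.14, or 1109 and 562 on the linear scale. That is a log2 difference of -0.98 ± 0.31, the lowest of the 28 kept probe sets of these genes, and 1.75% of all kept probe sets were as low. Both lie well above the floor, and their differences lay 0.64 apart, where the median gap of the 3476 genes with 2 kept probe sets was 0.29. The mean of the WWP1 pair was -0.66, past 1.5-fold. Both are of the shared-sequence type, so WWP1 has no value without that type.

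WWP2, which ubiquitinates the pluripotency factor OCT4, read 9.09 and 8.90 on its brightest probe set, 204022_at, a log2 difference of -0.19 ± 0.38. The second kept probe set, 210200_at, lay just under the floor on the control array at 6.02 and read 6.49 on the other, a bound of at least 0.39. The other 2 WWP2 probe sets were under the floor on both arrays. WWP1 minus WWP2 was -0.15 with a joint error of 0.49, so the pair did not differ beyond that error on their brightest probe sets.

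SMURF1, which ubiquitinates SMAD proteins of the BMP pathway and RHOA, read 8.90 and 8.91 on 212666_at, a log2 difference of 0.02 ± 0.38. Its other kept probe set, 215458_s_at, read 6.17 and 6.85, close to the floor. That difference, 0.68 ± 0.38, was the only one of the 28 kept probe sets past 1.5-fold upward on the floored values, where NEDD4L 241396_at and WWP2 210200_at have only bounds. The 3 remaining SMURF1 probe sets were under the floor on both arrays.

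SMURF2, which with SMAD7 directs the TGF-beta receptor to degradation, had 4 kept probe sets with small differences. Its brightest, 205596_s_at, read 11.28 and 11.17, a log2 difference of -0.11 ± 0.27. The next, 227489_at, read 10.03 and 9.79 (-0.24), 230820_at read 9.24 and 9.26 (0.01), and 232020_at read 7.14 and 7.30 (0.15). Their range of 0.39 was narrower than in most of the 740 genes with 4 kept probe sets, of which 80.5% were at least as wide. SMURF1 minus SMURF2 was 0.13, within a joint error of 0.47.

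HECW2, a larger ligase of the same type that binds p73, was read by 1 kept probe set, 232080_at, at 7.89 and 7.54. The log2 difference was -0.34 ± 0.38, within its error. Its 2 other probe sets were under the floor, 236089_at with linear signals of 44.7 and 33.1 and 243080_at with 24.3 and 8.03. Only 232080_at was measured above the floor.

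NDFIP1 was lower on each of its 3 probe sets, all bright, by small amounts, but its brightest stood at 0.022 after scaling to equal medians. The brightest, 217800_s_at, read 11.27 and 11.26, a log2 difference of -0.02 ± 0.27. The others, 222423_at and 222422_s_at, read 10.95 and 10.74 and then 9.84 and 9.63, and both differed by -0.21. The range of 0.19 was narrow, since 87.3% of the 1743 genes with 3 kept probe sets spanned at least as much.

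NDFIP2 probe sets disagreed widely, and none of the 3 kept ones is of the shared type. The brightest, 224802_at, read 11.63 and 11.41, a log2 difference of -0.22 ± 0.27. The next, 224799_at, read 10.03 and 10.44, or 1045 and 1391 on the linear scale, a difference of 0.41 ± 0.31. The third, 224801_at, read 9.35 and 8.62, or 653 and 393, a difference of -0.73 ± 0.38. The range of 1.14 was matched or passed by 122 of the 1743 genes with 3 kept probe sets, NDFIP2 included. The dimmest, 230190_at, read 2.83 and 5.03, under the floor on both arrays. Its unfloored difference of 2.20 is the largest of all 38, but 7.46% of the 16865 probe sets that failed the filter were as high, and their central 95% ran from -3.30 to 3.17. NDFIP1 minus NDFIP2 was 0.20, within a joint error of 0.38.

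**Figure D2:**
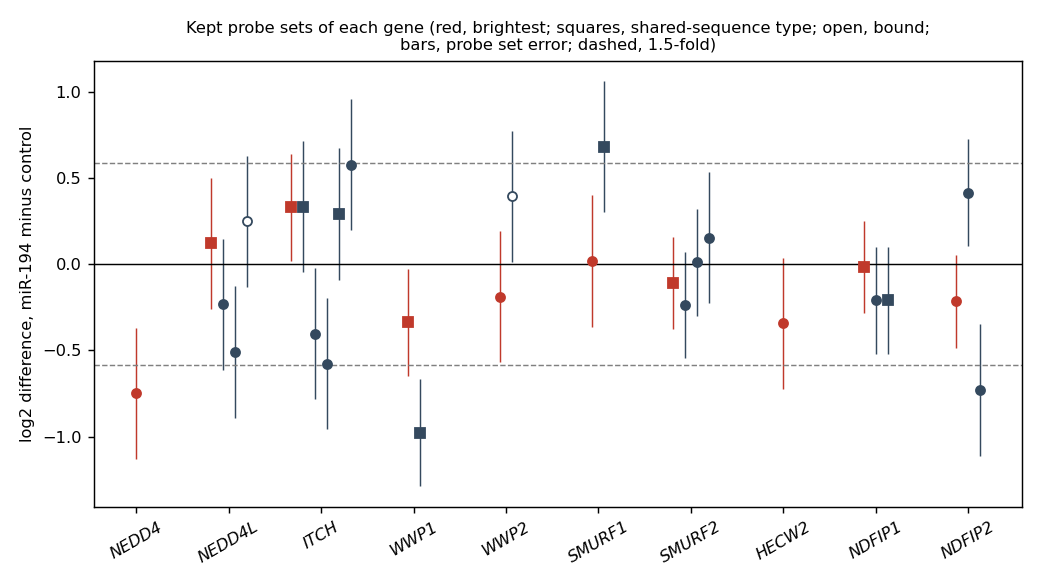
Log2 difference (miR-194 mimic minus control mimic) of the 28 kept probe sets, grouped by gene, with bars for the probe set error, red for the gene value, squares for the shared-sequence type, open points for bounds and dashed lines at 1.5-fold. The WWP1 pair lies on 1 side of 0, while the probe sets of ITCH and NDFIP2 spread over both, by 1.15 and 1.14.

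Counted by probe set, 28 of the 38 were kept, 26 of them above the floor on both arrays. Of the 28, 16 were below 0 (57.1%) against 47.2% of all kept probe sets, with medians of -0.15 and 0.024. Past 1.5-fold, 3 were lower (those of NEDD4, WWP1 and NDFIP2 given above) where 7.99% of all kept probe sets were, and 1 was higher (SMURF1) where 5.08% were, all on floored values. Probe sets of 1 gene share that gene's transcripts and are not replicates. In 8 genes at least 2 probe sets were kept, and 5 of those genes had them on both sides of 0, where 54.0% of the 6456 such genes did. WWP1 and NDFIP1 had all of theirs below 0, where 20.2% of such genes did. The 10 probe sets that failed the filter divided into 5 below and 5 above 0.

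Ordered by gene value, NEDD4 was lowest, then HECW2 (-0.34), WWP1 (-0.34), NDFIP2, WWP2, SMURF2, NDFIP1, SMURF1, NEDD4L and, highest, ITCH. No neighbours in that order differed beyond their joint probe set error, and the widest step, from NEDD4 to HECW2, was 0.41 with a joint error of 0.54. The ends, NEDD4 and ITCH, lay 1.08 apart with a joint error of 0.49, with the ITCH value subject to the probe set types above. They were picked as the extremes of 10 values. A joint error suits a pair fixed beforehand, so it cannot judge the gap between extremes. The differences of NEDD4, WWP1 and ITCH exceeded their own probe set error, 3 of 10, where those of 29.3% of all genes did.

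**Figure D3:**
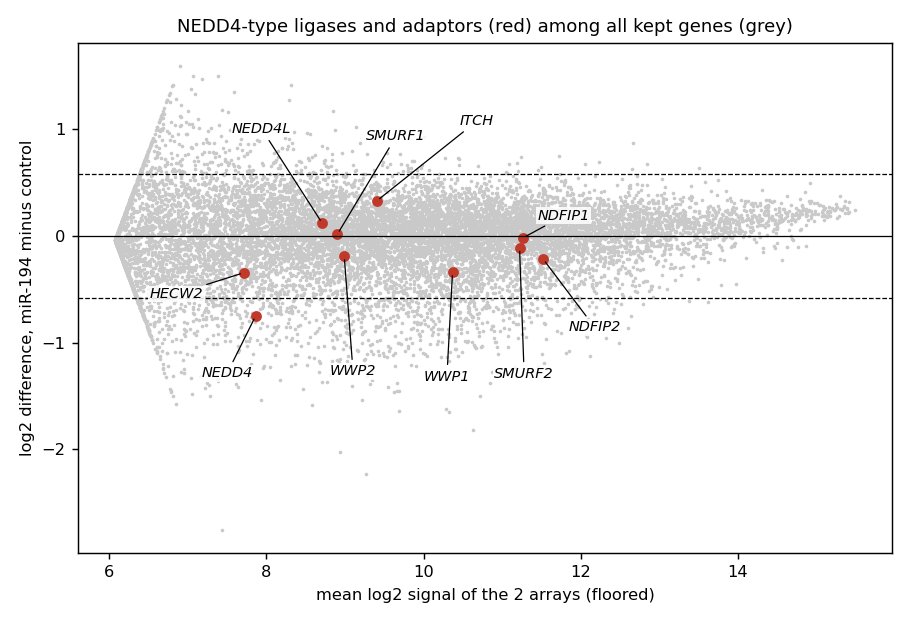
Log2 difference against mean log2 signal (floored, both arrays) for 12769 genes in grey and the 10 genes in red, with dashed lines at 1.5-fold. NEDD4, at -0.75, is the only red point beyond a dashed line, and the other 9 lie between the dashed lines.

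The ligase genes are long, and genomic length moved with the differences across the array. The 8 ligase genes span from 116.7 kb (SMURF1) to 399 kb (HECW2) in RefSeq's GRCh38.p14 annotation, and all 8 fall in the longest of 5 length classes. In that class of 2551 genes the median log2 difference was -0.11, 63.1% were below 0, and 14.1% were lower by 1.5-fold or more. The ligases had a median of -0.15, 5 of 8 (all but NEDD4L, ITCH and SMURF1) were below 0, and 1 of 8 was lower by 1.5-fold. These figures lie close to those of genes of like length. NDFIP1 (45.7 kb) and NDFIP2 (74.9 kb) fall in the next class, where the median was -0.03 and 9.41% were lower by 1.5-fold. The part of gene length in any single difference was not tested.

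HECT ligases outside the 10 genes above had a median of -0.04 over the 17 kept of 20 listed, with 9 below 0. Of the kept genes, 3 of 17 were lower by 1.5-fold and none was higher, beside 7.31% and 2.98% of all genes. HECTD2 was the lowest, with linear signals of 662 and 221 and a log2 difference of -1.58 ± 0.38, and its second probe set stood at -0.45. HECW1, the close relative of HECW2, is also of the NEDD4 type but was not among the 10 genes described. It was at -0.65 ± 0.38, past 1.5-fold, on 1 probe set that read 105 and 67.2, the latter just above the floor. HERC4, chosen after its value was seen, was at -0.63 ± 0.31 with other probe sets up to 0.30. HERC5, an interferon-induced ligase of ISG15, was at 0.31 ± 0.31, and HECTD3 was at 0.29 ± 0.38.

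Adaptors and regulators of the NEDD4 type had a median of -0.11 over 17 kept of 20, with 10 below 0. None of the 17 was past 1.5-fold in either direction, where 7.31% of all genes were lower and 2.98% higher. PMEPA1, a membrane protein whose PY motifs bind NEDD4 ligases, was at -0.32 ± 0.38, with its 3 probe sets between -0.39 and -0.32. RNF11, a small PY-motif protein bound by several of these ligases, was at -0.28 ± 0.27. TXNIP, an arrestin-like protein that ITCH ubiquitinates, was at 0.38 ± 0.31, and its 3 probe sets reached 0.82. SGK1, the kinase that phosphorylates and restrains NEDD4L, was at 0.34 ± 0.38.

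Reported substrates of these ligases had a median of -0.13 over 26 kept of 31, with 15 below 0. By 1.5-fold 2 of 26 were lower and none higher, beside the same 7.31% and 2.98%. LATS1, the Hippo kinase that WWP1 and ITCH ubiquitinate, was at -0.62 ± 0.27 on 1 probe set that read 2903 and 1883. ERBB3, a receptor that NEDD4 ubiquitinates, was chosen after its value was seen. Its brightest probe set was at least 2.43-fold lower, under the floor with miR-194, and another of its 3 was at -0.20. KLF5 was at -0.54 ± 0.38 with another probe set at 0.17. RHOA was at 0.43 ± 0.27, with its second probe set at 0.69, and IGF1R was at 0.25 ± 0.31 with another at -0.19. Substrates are marked as proteins, and the arrays read only their messenger RNA.

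The enzymes that supply ubiquitin had 8 kept of 15, with a median of 0.09 and 6 above 0. By 1.5-fold 1 of 8 was lower and none higher, beside 7.31% and 2.98% of all genes. UBA6, an activating enzyme, was at -0.90 ± 0.31, though its 5 probe sets reached 0.12. UBA1, the main activating enzyme, was at 0.58 ± 0.27, just inside 1.5-fold, with its other probe set at 0.16. UBE2L6 was at 0.53 ± 0.38, and UBE2E3 at -0.05 ± 0.27. The ESCRT sorting machinery, which gathers ubiquitinated cargo on endosomes, had 22 kept of 25, with a median of -0.01 and 13 below 0. None of the 22 was past 1.5-fold, where 7.31% of all genes were lower and 2.98% higher. STAM2, which binds ubiquitinated cargo, was at -0.54 ± 0.31 and reached -0.90 and 0.12 on other probe sets. USP8, an endosomal deubiquitinase, was at -0.52 ± 0.31 with its other probe set at -0.64. STAMBP, also a deubiquitinase, was at 0.31 ± 0.27, and HGS at 0.28 ± 0.38.

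**Figure D4:**
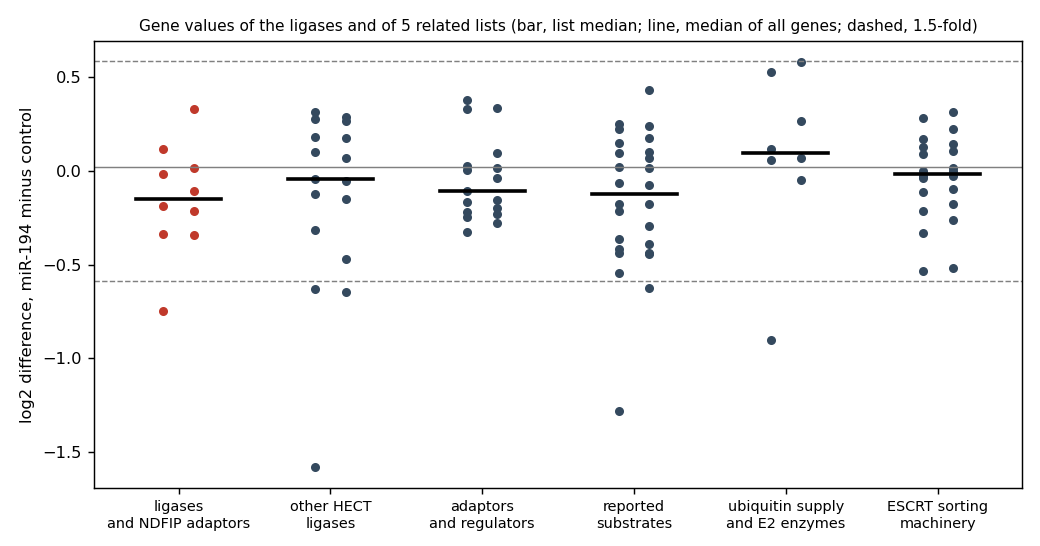
Log2 difference of each kept gene in the ligase and NDFIP list (red) and 5 related lists, with a black bar at each list's median, a grey line at the median of all genes and dashed lines at 1.5-fold. The list medians run from -0.15 for the ligases and NDFIP adaptors to 0.09 for ubiquitin supply, and HECTD2 is the lowest point at -1.58.

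As a check of the labelled line, 10 of 12 genes known in HEK-293T cells were kept, among them PAX2 (6.88 and 7.30) and the neurofilament gene NEFM (9.32 and 9.53). Of the markers of other cells, 0 of 6 for hepatocytes, 1 of 6 for enterocytes, 3 of 6 for fibroblasts, 1 of 6 for blood and 1 of 5 for endothelium were kept.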

How the data were processed

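Total RNA was labelled with biotin and hybridised to Affymetrix 3' expression arrays, per the labels. The authors deposited log2 signals, 1 column per array. The submitters' processing notes name MAS5. No version or scaling target is given there. The log base was checked on the values: raised from base 2, both columns had a 2% trimmed mean of 500.1. With 1 array in each group, the number of arrays limits precision. Genes came from the platform annotation, which can be old: 41097 probe sets name 1 gene, 1801 name several (left out), and 41043 of the former matched RefSeq by Entrez identifier.

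Floors, differences and the probe set error (classes of mean log2 signal up to 9.23, up to 10.87 and above) were computed in Python 3.11.15 with pandas 2.3.3, after a check on simulated data. Alternatives were other scalings (median, quantile, loess in statsmodels 0.14.6 with a span of 0.3), floors at the 25th and 75th percentiles or none, the mean over probe sets, the second brightest probe set, no shared-sequence probe sets, and a 2-fold threshold. The named genes were the 10 ligases and adaptors with all their probe sets, and up to 2 genes per direction of each related list with the largest differences above the floor on both arrays. The genes and lists were chosen with earlier results of these data known.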

Additional observations from a re-analysis of the deposited data

How the results depend on the processing

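NEDD4 kept its side of 1.5-fold under the 3 other scalings, with the floor at the 25th percentile and without a floor, at -0.75 to -0.71. With the floor at the 75th percentile 0 genes were lower by 1.5-fold, since NEDD4 and HECW2 no longer passed the filter (8 of 10 did), beside 6.0% of all genes on that setting. With the mean over probe sets 2 were lower, NEDD4 and WWP1, beside 5.29%. At the 2-fold threshold 0 were lower, beside 1.42%. With the second brightest probe set, which 8 genes have, 1 was lower (WWP1, beside 8.10%), 1 was higher (SMURF1, beside 6.71%) and the median was 0.062, against 0.036 for all genes on that setting. Of 85 single-gene values under these settings, 79 moved by less than the gene's probe set error, if at all, and 6 by more. In 8 the sign was the other one (of NEDD4L, ITCH, WWP2, NDFIP1 and NDFIP2). Many of the 79 had no room to move, so that count does not measure stability. Changing or dropping the floor left every kept gene's value as it was, because the same probe set was read. All 6 larger moves came under settings that change which probe sets are read. The 6 were WWP1 with the mean (-0.66) and, with the second probe set, WWP1 (-0.98), WWP2 (0.39), SMURF1 (0.68) and NDFIP2 (0.41), and ITCH without shared-sequence probe sets (-0.40). Signal near the floor limits the second probe sets of WWP2 and SMURF1. No paired analysis was possible because each group has 1 array.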
